A study of Drosophila melanogaster with 17 samples.

Results

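Chromatin of the Drosophila melanogaster line BG3-c2 was digested with micrococcal nuclease (MNase) in digests labelled low, medium and high, and the tetranucleosomal DNA of each digest was sequenced from both ends on an Illumina platform. These 3 libraries, of 17 in the series, were chosen by their labels, and there is 1 library per digest. BG3-c2 is an established line whose labels name the central nervous system of the third-instar larva as its tissue. The cells of all 3 libraries were untreated, with no RNA interference, were grown at 26°C in the same medium, and their nuclei were digested for 20 min at 37°C. The amount of nuclease behind each of the words low, medium and high is not given in the sources used here. The series design says that Illumina libraries came from a tetranucleosomal band cut out of a gel, whereas the sample labels say total MNase-digested chromatin. A band cut separately for each library would enter every length given here. Without replicate digests no difference below has a test, and values are descriptions of these 3 libraries.

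MNase cuts the linker DNA between nucleosomes first, and then trims the ends that it has made. Light digestion therefore leaves long arrays of nucleosomes, and further digestion shortens them towards single nucleosomes and trims the linker stubs that flank each array. A tetranucleosomal fragment spans 4 nucleosomes and the linkers between them, so its length is read as a measure of nucleosome spacing, and both of its ends mark linkers that were cut. Linkers in open chromatin are cut earlier than those in compact chromatin, so the regions that a library covers may depend on how far the digest had gone. Fragments shorter than the DNA of a nucleosome core come from smaller particles, or from cuts inside a nucleosome.

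The low, medium and high digest held 129080516, 57786019 and 30387171 fragments as deposited. Fragments with the same start and end were counted once here, which left 77.5%, 88.7% and 93.1% of them. On the 6 chromosome arms (X, 4 and both arms of 2 and 3) there were 80417273, 41352354 and 22225674 distinct fragments, and values below refer to these unless said otherwise. Depth thus fell from the low to the high digest, together with the treatment. Values were also taken after drawing 20000000 deposited fragments from each library, which matches the total but not the number of distinct arm fragments in a length class.

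Fragments of the tetranucleosomal class became shorter with digestion. Fragments of 500 to 1000 bp had median lengths of 701, 663 and 657 bp from the low to the high digest. Most of the shortening of the median, 38 of 44 bp, lay between the low and the medium digest. The most frequent length moved otherwise, from 697 to 680 and 656 bp, with its larger step of 24 bp between medium and high. The shape of the peak differed between the libraries as well. Its width at 50% of its height was 131, 190 and 133 bp from low to high, so the medium library was the broadest. At the short side of the peak, fragments over 450 and up to 600 bp made up 8.14%, 15.4% and 12.1%. At the long side, fragments over 800 bp made up 3.61%, 1.95% and 0.848%, a steady loss. The main peak, fragments over 600 and up to 800 bp, took 38.4%, 38.7% and 43.4%. Over the 5 large arms the change of the median from low to high ran from -46 bp on 2L to -42 bp on 2R, a small spread beside its size. The small chromosome 4 fell by 56 bp, from 697 to 641 bp.

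**Figure D1:**
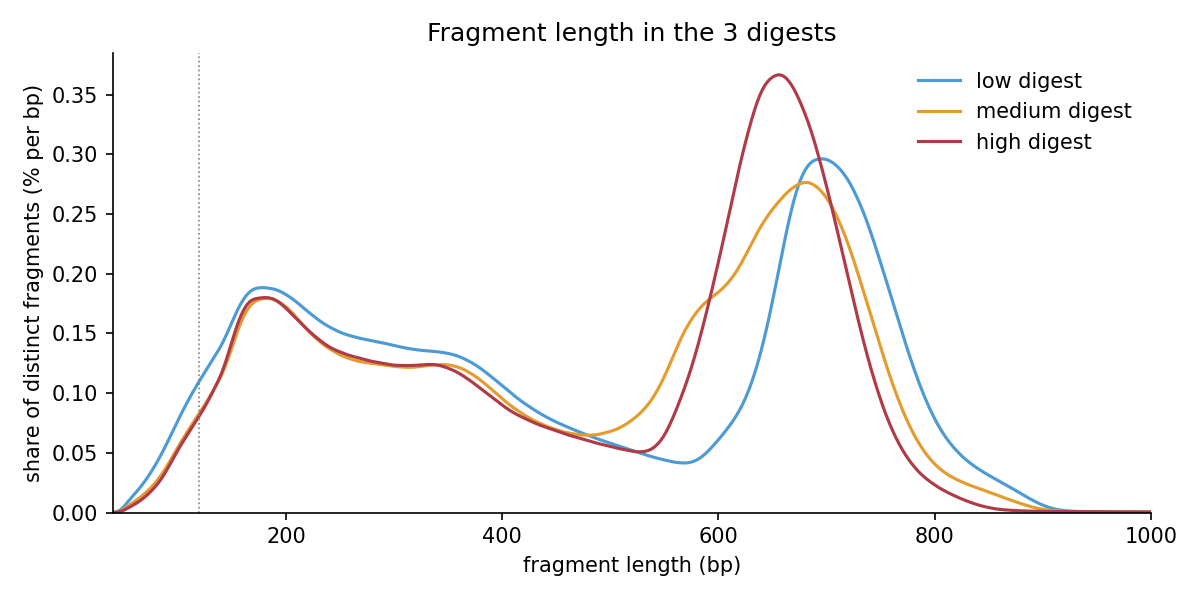
Share of distinct arm fragments (% per bp, smoothed) against fragment length (bp) for the low, medium and high digest; the dotted line is at 120 bp. The tetranucleosomal peak moves left from 697 to 680 and 656 bp, and the medium digest has a shoulder on its short side.

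The libraries were not purely tetranucleosomal. Fragments of 500 to 1000 bp made up 46.8%, 52.7% and 53.3% from low to high. As deposited, with repeats, fragments up to 250 bp made up 30.6%, 23.6% and 22.3%, a fall at both steps. Counted once they were 25.2%, 21.9% and 21.9%, and those over 250 and up to 450 bp 24.6%, 22.1% and 21.8%. These shorter fragments formed a broad hump with its top near the length of a single nucleosome and a shoulder towards longer ones, as the plot of fragment lengths shows. In the total digests of the same line read on nanopore devices, fragments over 250 and up to 450 bp were more frequent with each step, from 28.9% to 40.3% and 50.2% of arm reads. The shorter classes of the selected libraries therefore ran against the ladder of the total digests, in which digestion made short fragments more frequent. Sequencing platform and gel cut differ together here and cannot be told apart.

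Fragments under 120 bp became scarcer from low to high digest. They made up 3.64% in the low digest, with an exact 95% binomial interval from 3.64% to 3.65%. Medium had 2.52%, from 2.52% to 2.53%, and high had 2.33%, from 2.33% to 2.34%. The intervals cover counting error of distinct fragments only, because 1 library per digest gives no spread between digests. Nearly all of the drop of 1.31 percentage points fell between low and medium, where it was 1.12 points. Each large arm showed it, with differences from -1.37 points on X to -1.27 points on 3R. The share was highest on X in each digest, at 3.76%, 2.63% and 2.40%, and lowest on 4, at 3.39%, 2.42% and 2.07%. Nanopore libraries held few such fragments, with 0.0524%, 0.0723% and 0.0927% in the total digests from low to high and 0.334% in digested naked DNA. These shares went up with digestion, and as the platform differs they are no background for the Illumina shares. Tetranucleosomal libraries of the same line after control dsRNA, also Illumina, held more of them, 8.39% in replicate 1 and 11.9% in replicate 2.

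How repeated fragments were counted touched the short classes most. In the low digest, 62.0% of the deposited fragments under 120 bp were distinct, against 88.7% of those of 500 to 1000 bp. In the high digest the same values were 94.8% and 96.2%. Counted as deposited, fragments under 120 bp were 4.54%, 2.69% and 2.35% from low to high. The order of the 3 digests was thus the same, with a wider distance between them. Repeats can come from PCR or from independent cuts at the same sites, and their part in the result was not tested.

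In 10 kb windows the loss of short fragments was spread over the genome. The median window held 3.62%, 2.53% and 2.33% of fragments under 120 bp from low to high. The central 90% of windows ran from 2.96% to 4.55% in the low digest, from 1.92% to 3.33% in the medium one and, for the high digest, from 1.67% to 3.11%. Set beside counting error, the spread between windows was smallest in the high digest. The SD between windows there was 0.506 percentage points, against 0.381 from counting alone, with a median of 42 such fragments per window. For the low digest the SD was 0.537 against 0.251 from counting, with a median of 228 fragments. Window shares correlated with a Pearson r of 0.66 between low and medium and 0.47 between low and high, over 12023 windows that are not independent. By rank the agreement was weaker, with a Spearman rho of 0.545 and 0.323.

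In 1 kb windows the median share was 3.58%, 2.47% and 2.24%. The median window then held 22, 8 and 4 fragments under 120 bp, so that most of the spread of single windows in the high digest was counting error, with an SD of 1.48 points against 1.32 from counting. Windows over 3 times the median share numbered 102 (0.0850%), 755 (0.629%) and 1523 (1.27%) from low to high, and 26 (0.0217%) were shared by all 3. Counts per window fell in the same order, so the rising number was not read as a change. Windows of the highest mean share were found on X. In the window X:21834001-21835000 fragments under 120 bp made up 45.4%, 44.8% and 49.0% from low to high, 1134 of 2500, 581 of 1297 and 340 of 694 fragments. Its coverage was 4.07, 3.98 and 4.06 times the median window. Neither measure followed the digest there. The next window, X:21835001-21836000, had 23.9%, 26.5% and 42.9%, on only 272, 147 and 77 fragments. In X:8822001-8823000 the values were 19.1%, 27.7% and 23.8%, on 467, 141 and 151 fragments. Annotation of these windows was not used here, since the gene table at hand is of another release than the coordinates.

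**Figure D2:**
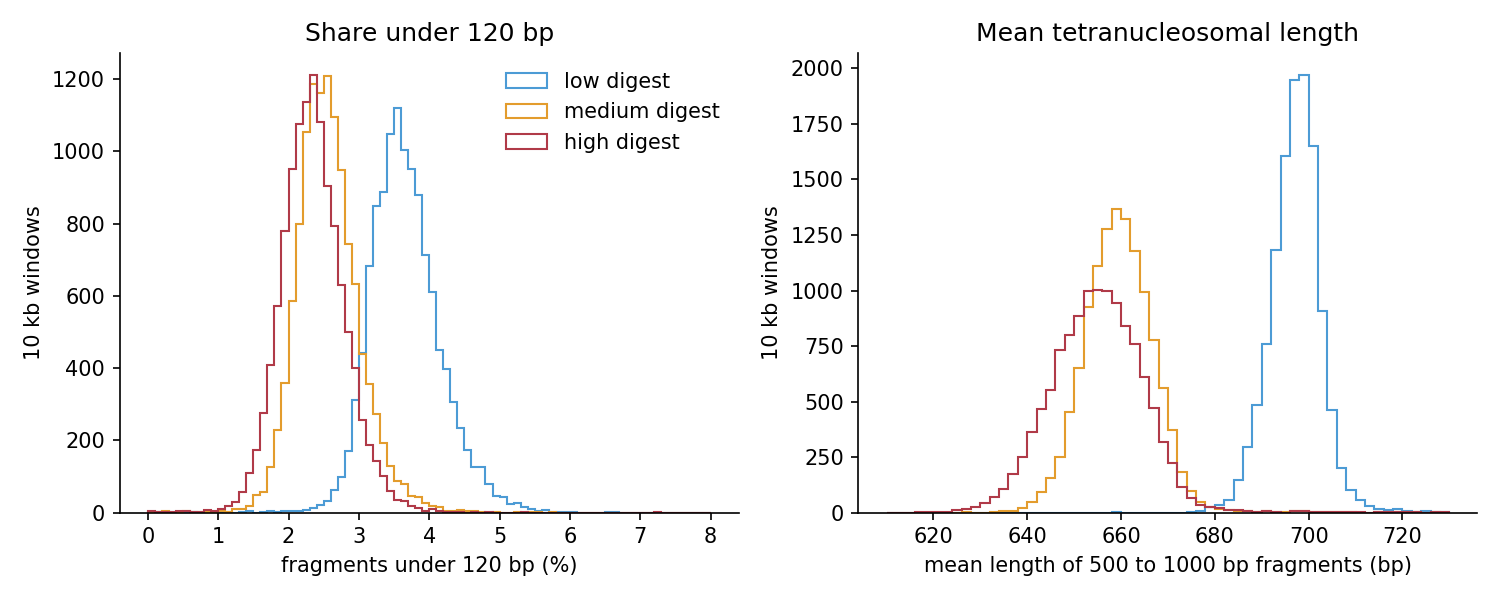
Number of 10 kb windows (y) by share of fragments under 120 bp (left, %) and by mean length of 500 to 1000 bp fragments (right, bp) in the 3 digests. By length the low digest, with a median of 697 bp, lies apart from the others, while by share it overlaps with them around a higher median of 3.62%; 2 windows per digest and 16 to 28 windows lie outside the drawn ranges.

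Shortening of the tetranucleosomal class was also general. Mean length in the median 10 kb window was 697, 659 and 655 bp from low to high. All but 4 of 12023 windows were shorter in the high than in the low digest, with a median change of -42.6 bp and a central 90% from -53.5 to -30.2 bp. From medium to high the median change was only -4.58 bp, and 1635 windows became longer. The short side of the peak, largest in the medium library, enters these means. Windows grew more unlike each other with digestion, although counting error also grows at lower depth. The SD of mean length between windows was 5.92, 8.27 and 10.4 bp from low to high. Windows with long fragments in 1 digest tended to have them in the others, with a Pearson r of 0.92 between medium and high, 0.74 between low and medium and 0.73 between low and high.

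The gaps between facing ends of tetranucleosomal fragments can bear on how far a linker was trimmed after it was cut. When a linker is cut once and not trimmed, the right end of one fragment and the left end of the next abut, with a gap of 0. Among fragments of 500 to 1000 bp, abutting ends were 3.36 times as frequent as ends 100 to 150 bp apart in the low digest. The value dropped to 2.79 with medium and 2.08 with high digestion. Over the 5 large arms it ran from 3.26 to 3.55 for low, from 2.69 to 2.96 for medium and from 2.00 to 2.16 for high digestion, so that the ranges did not overlap. Gaps of 2 to 10 bp fell less, from 1.53 to 1.47 and 1.36, and gaps of 11 to 30 bp hardly, from 1.18 to 1.17 and 1.16. Gaps of 31 to 60 bp went from 1.08 to 1.07 and 1.06. None of these wider classes rose as abutting ends fell, and whether trimming lies behind the fall was not tested. Overlaps of 2 bp between facing ends were rarer than the reference in each digest, at 0.399, 0.274 and 0.248. The most frequent gap after smoothing was 1, 2 and 3 bp from low to high. Before smoothing it was 0 in each digest, so the shift came with the lower peak at 0. After thinning to the same number of deposited fragments, the value for abutting ends over all lengths was 2.54, 2.27 and 1.78. Pairs of abutting ends then still differed in number, with 5453120, 4734952 and 3551965. Control-dsRNA libraries gave 1.71 and 1.82 for the 500 to 1000 bp class, below the high digest. Naked DNA of the same length range, read on a nanopore device, gave 1.14. As the platform differs, it is no background for the Illumina values. Abutting ends were looked at after the data had been seen.

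**Figure D3:**
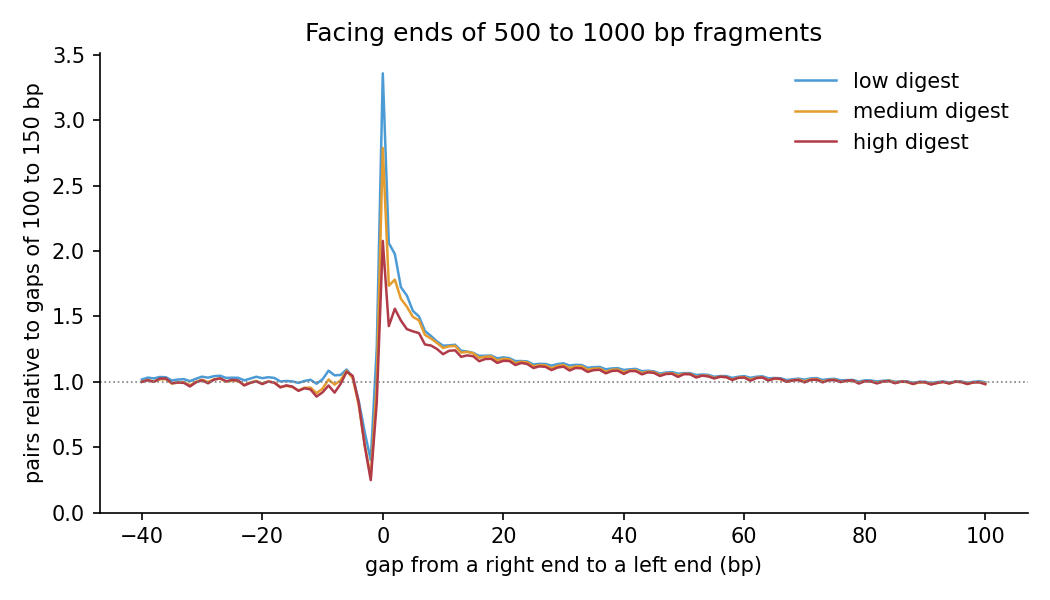
Frequency of gaps (bp) from the right end of a fragment to the left end of another, relative to gaps of 100 to 150 bp, for 500 to 1000 bp fragments in the 3 digests. The peak at a gap of 0 drops from 3.36 to 2.79 and 2.08, and beyond 20 bp the 3 lines nearly coincide.

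Phasing was measured as the tendency of left fragment ends to lie whole numbers of nucleosome repeats apart. Its amplitude, in percent of the trend, was 0.880%, 0.963% and 1.21% from low to high, over distances of 150 to 1200 bp. Naked DNA, fitted the same way but read on a nanopore device, gave 0.116%. The difference of platform enters that comparison. The rise from low to high was found on each of the 5 large arms, from 0.196 percentage points on X to 0.444 points on 3R. Among the large arms the amplitude was lowest on X, at 0.746%, 0.796% and 0.942%, and 3R was highest in the medium and high digest, at 1.06% and 1.40%. In thinned libraries the values were 0.932%, 1.00% and 1.24%. Control-dsRNA libraries reached 1.67% and 1.99%. The period barely moved, with 177, 178 and 175 bp from low to high. The difference of -2 bp was -3 to -2 bp over the 5 large arms.

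Fragment length can enter this measure. Where cuts at both ends of a fragment start new fragments, left ends also lie 1 fragment length apart. The profile of distances had a maximum at 715, 710 and 686 bp from low to high. Over all lengths it stood 4.57%, 1.81% and 2.40% above the level at distances over 1000 bp. Whole numbers of nucleosome repeats also fall near this distance, so fragment length and phasing cannot be told apart there. The fit was therefore repeated over distances of 100 to 600 bp, a range chosen after the data had been seen. The amplitude was then 1.23%, 1.80% and 2.11%, a rise of 1.71-fold from low to high in place of 1.38-fold. Its periods were 178, 183 and 177 bp. The maximum at about 1 nucleosome repeat rose from 10.5% to 12.9% and 16.6%, and lay at 172, 164 and 160 bp. The next maximum was at 356, 347 and 338 bp, and the distance between these maxima was 184, 183 and 178 bp.

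**Figure D4:**
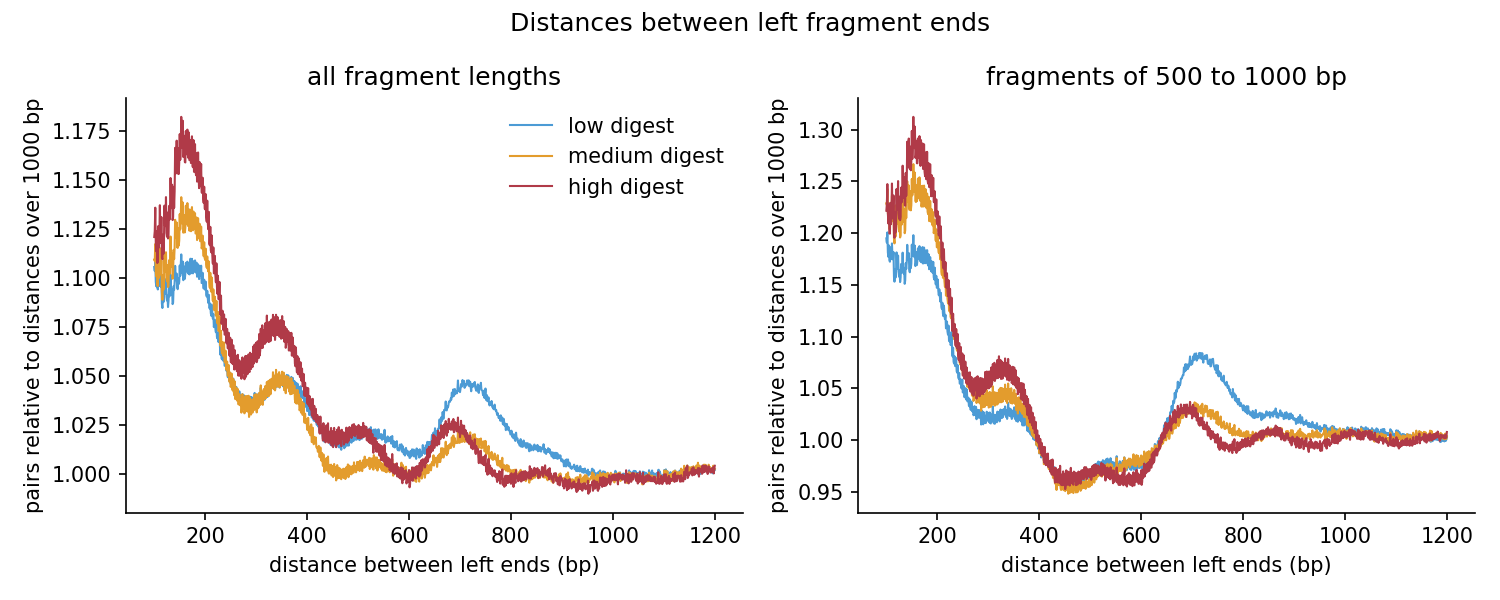
Number of pairs of left ends by their distance (bp), relative to distances over 1000 bp, for all fragment lengths (left) and 500 to 1000 bp fragments (right) in the 3 digests. The first maximum rises with digestion, from 10.5% to 16.6% above 1 over all lengths, while the low digest has the highest maximum near 715 bp.

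Length classes differed in phasing. In fragments of 500 to 1000 bp the amplitude was 2.06%, 1.90% and 2.33%, so the medium digest lay below the low one. Over distances of 100 to 600 bp the same class gave 2.33%, 2.94% and 3.57%, rising at both steps. Fragments of 120 to 250 bp gave an amplitude of 1.05%, 1.097% and 0.765%, with best periods of 193, 192 and 250 bp. The last value is the upper limit of the search, so no period could be read for the high digest in this class over all arms. By arm it was 191 bp on 2L and 190 bp on 3R, and at the limit on 2R, 3L and X. Over distances of 100 to 600 bp this class gave 1.41%, 1.59% and 1.50%, so that the fall from low to high was not seen there. In fragments over 250 and up to 450 bp the amplitude was 0.426%, 0.466% and 0.562%, with periods of 204, 198 and 189 bp. The cosine took a share of only 0.0478, 0.0789 and 0.101 of the variance about the trend. Over all lengths this share was 0.196, 0.215 and 0.311. By arm, the low-digest period of this class ran from 203 bp on 2R to the limit of 250 bp on X. The order of its periods was therefore not read as a change. Over distances of 100 to 600 bp the amplitude of this class was 1.65%, 1.52% and 1.64% with no rise, and the period was at the limit of 250 bp in the low and medium digest. The rise with digestion under both ranges was therefore seen over all lengths, and from low to high in fragments of 500 to 1000 bp.

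Within single 10 kb windows regularity was weak, and it rose in the median. It was taken as the mean cosine over pairs of ends at periods of 170 to 210 bp less that at shorter and longer periods, times 1000. The median window gave 0.640, 0.850 and 0.900 from low to high. A value above 0 was found in 79.9%, 81.2% and 79.6% of windows. From low to high 60.5% of windows rose. In absolute terms the most regular windows rose furthest. Windows were put into 5 equal groups by regularity in the medium digest, which takes no part in the comparison of low with high. The median went from -0.0967 to -0.0213 in the least regular group and from 1.99 to 2.75 in the most regular group. In the groups between it went from 0.289 to 0.400, 0.628 to 0.861 and 1.00 to 1.38. Groups with a higher median in the low digest thus rose by more, which was not particular to the most regular group. Windows correlated with a Pearson r of 0.79 between low and medium, 0.74 between medium and high and 0.62 between low and high.

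Coverage of most of the genome was alike in the digests at the scale of 10 kb. Coverage of a window was its number of fragments divided by that of the library's median window, which held 6393, 3377 and 1798 fragments from low to high. Windows with a mean of at least 500 fragments were used, 12023 of 12042. From low to medium, 0 windows (0%) rose and 75 (0.624%) fell by over 1.5-fold. From medium to high, 5 windows (0.0416%) rose and 1 (0.00832%) fell. Between low and high, 30 windows (0.25%) were higher and 366 (3.04%) lower in the high digest. Losses outnumbered gains by a margin that moved with the settings. There were 53 higher and 304 lower windows when scaled to total fragments, 46 and 313 as deposited, 47 and 305 after thinning, and 73 and 217 in fragments of 500 to 1000 bp. The central 90% of windows lay between 0.707 and 1.29 times the low digest. The SD of the log2 ratio of high to low was 0.26, 6.47 times the 0.04 that Poisson counting gives. It was 0.18 from low to medium and 0.14 from medium to high, 5.40 and 3.14 times counting. Coverage correlated with a Pearson r of 0.95 between low and medium, 0.97 between medium and high and 0.89 between low and high. In 4053 windows (33.7%) coverage rose at both steps, and in 3461 (28.8%) it fell at both.

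**Figure D5:**
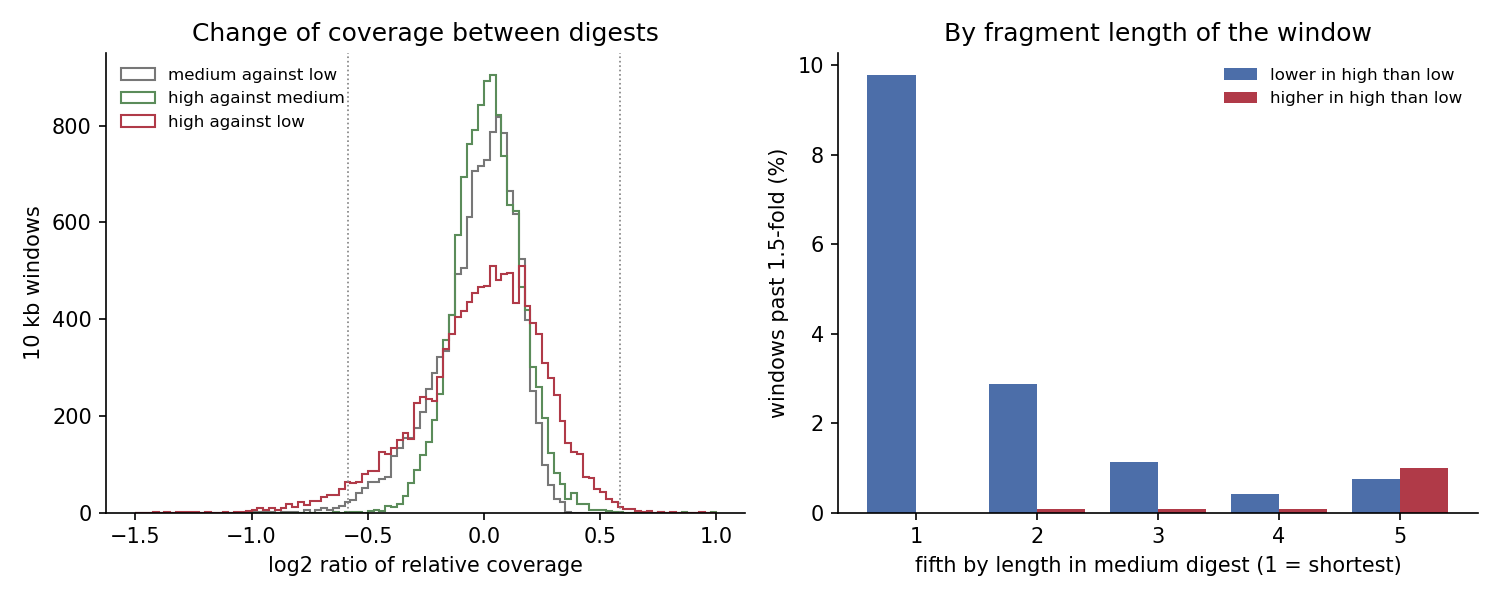
Left, number of 10 kb windows by log2 ratio of relative coverage for each pair of digests, with dotted lines at 1.5-fold. Right, percent of windows past 1.5-fold between low and high digest in 5 equal groups of windows by mean fragment length in the medium digest; 9.78% of the group with the shortest fragments were lower, against 0.749% of the group with the longest.

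At 1 kb the digests differed more. Of 119974 windows with a mean of at least 50 fragments, 12428 (10.4%) were higher and 15540 (13%) lower by over 1.5-fold in the high than in the low digest. The SD of the log2 ratio was 0.55, 4.01 times that from counting, and the correlation between low and high was 0.72. Most stretches of changed windows were short. Of 9101 stretches of adjoining windows that were higher, 6787 were 1 window long, and the longest spanned 12 kb. Among 10201 stretches that were lower, 6826 were 1 window long and the longest spanned 16 kb. Counted by window, most of the 15540 lower windows thus adjoined another lower one. Stretches of 3 or more windows held 18.8% of the higher and 27.3% of the lower windows. The log2 ratio of a window correlated with that of its neighbour with a Pearson r of 0.38, and with that of a window 2 kb away with 0.14 and 10 kb away with 0.06.

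Losses concentrated in windows with short tetranucleosomal fragments. Windows were put into 5 groups of 2402 or 2403 by their mean fragment length in the medium digest. That library had the largest short side of the peak, which enters the mean. Whether windows differed in the peak or in its short side was not tested. In the group with the shortest fragments, at a median of 651 bp, coverage in the high digest was 0.901 times that in the low one, and 235 windows (9.78%) were lower by over 1.5-fold. In the group with the longest, at 669 bp, it was 1.12 times, with 18 windows (0.749%) lower and 24 (0.999%) higher. The 3 groups in the middle had 0.976, 1.01 and 1.04 times, in order of length. The shortest-fragment windows also shortened more from low to high, by a median of -49.3 bp against -34.8 bp. They held more fragments under 120 bp in the low digest, 3.91% against 3.40%, and were less regular, at 0.536 against 0.727. Across 12013 windows the log2 ratio correlated with length in the medium digest with a Pearson r of 0.39. The correlation was -0.08 with the share under 120 bp in the medium digest and 0.13 with regularity. Base composition, which can enter all of these, was not analysed here. Coverage of digested naked DNA holds copy number, how well a region is read and how readily its naked DNA was cut. It correlated with the ratio at a Pearson r of 0.04 and a Spearman rho of -0.09. Losses were nevertheless more frequent at both of its ends. Of the windows in the lowest of 5 groups by naked DNA coverage 6.39% were lower, and in the highest 4.18%, against 0.965%, 1.47% and 1.84% in the groups between.

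Changes in short and in tetranucleosomal fragments were correlated, but losses were more frequent in the short ones. Scaled each to its own median window, the log2 ratio of high to low in fragments of 120 to 250 bp correlated with that in fragments of 500 to 1000 bp with a Pearson r of 0.79 in 10 kb windows. In fragments of 120 to 250 bp, 52 of 12023 windows were higher and 734 lower by over 1.5-fold. In fragments of 500 to 1000 bp, 73 of 12023 were higher and 217 lower. The SD of the log2 ratio was 0.31 and 0.25 in these classes, against 0.09 and 0.06 from counting.

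The windows with the largest losses were picked for their size, so their counting error, given beside them, is a description and holds no spread between digests. The window 3R:8300001-8310000 had 17233, 5055 and 1823 fragments from low to high, or 2.70, 1.50 and 1.01 times the median window. Its log2 ratio of high to low was -1.41, with a counting SE of 0.04. The window X:12550001-12560000 had 5108, 1473 and 541 fragments, or 0.799, 0.436 and 0.301 times the median, a log2 ratio of -1.41 with SE 0.07. In X:7950001-7960000 there were 6441, 2061 and 706 fragments, and the log2 ratio was -1.36 with SE 0.06. Both X windows had short tetranucleosomal fragments in the high digest, 625 and 641 bp, and the 3R window long ones, 664 bp. They held 4.21% and 4.16% of fragments under 120 bp in the low digest, against 2.21% in the 3R window.

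Gains were smaller. The window 3L:1760001-1770000 had 13784, 9230 and 6844 fragments, or 2.16, 2.73 and 3.81 times the median, a 1.77-fold rise. In 3L:23100001-23110000 there were 10751, 7232 and 5137 fragments, 1.68, 2.14 and 2.86 times the median, a 1.70-fold rise. Its fragments were long in each digest, at 719, 698 and 697 bp, and only 1.42%, 0.691% and 0.467% were under 120 bp. In 3L:17010001-17020000 there were 7226, 4818 and 3439 fragments, a 1.69-fold rise.

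Chromosome 4 lost coverage at the first step and not at the second. Its median window had a log2 ratio of -0.31 from low to medium and 0.09 from medium to high, against -0.03 to 0.03 and -0.00445 to 0.08 over the large arms. Of its 135 windows of 10 kb, 10 (7.41%) were lower and 0 higher by over 1.5-fold in the high than in the low digest, against 3.04% and 0.25% of all windows. It differed in phasing as well. Its amplitude of 0.665%, 0.512% and 0.494% fell over distances of 150 to 1200 bp, with best periods of 187, 189 and 240 bp. Over distances of 100 to 600 bp the direction turned, with 0.966%, 0.998% and 1.04%. In thinned libraries the last period was 175 bp, so it is poorly determined on so small a chromosome.

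The changed windows were also looked up in the nanopore titration of total DNA. Together, the 359 windows that fell on Illumina and were seen in all libraries had 0.833 times the share of reads in the high as in the low nanopore digest, and 0.607 times on Illumina. The 30 windows that rose had 1.08 times on nanopore and 1.62 times on Illumina. The latter ratio rests on 648 reads in the high and 661 in the low nanopore digest, too few to give a direction. For the windows that fell there were 6693 and 8820 reads, and the nanopore share was lower as well. The windows were picked by their Illumina ratio, so the smaller change on nanopore is not read as a difference between platforms. Single named windows held too few nanopore reads to give a direction. In the low and high digest X:12550001-12560000 had 11 and 16 reads, 3R:8300001-8310000 had 13 and 9, and X:7950001-7960000 had 15 and 12. Over single windows the 2 ratios correlated with a Pearson r of only 0.22. Nanopore libraries had 22 to 29 reads in the median window, and counting alone gave 0.47 of the 0.50 SD of their log2 ratio.

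Coverage after control dsRNA was most like the high digest. Across 12013 windows of 10 kb, replicate 1 of the control-dsRNA tetranucleosomal libraries correlated with the low, medium and high digest with a Pearson r of 0.58, 0.70 and 0.77. For replicate 2 the values were 0.54, 0.66 and 0.72. Median fragment counts per window in the control libraries were 617 and 103.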

How the data were processed

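Per the submitters' processing notes, Bowtie 1.1.1 and bedtools were used and the build was dm3. The deposited tables list 1 interval per fragment as chromosome, start and end, with no header, and were matched to libraries through their names. Illumina lengths ran from 51 to 1500 bp. Filters applied by the authors are not given in the sources used here. Coordinates are counted from 1.

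Length was end minus start. Identical intervals were counted once. Windows took fragments by midpoint. Phasing was the amplitude of the best cosine of period 150 to 250 bp about a quadratic trend in the autocorrelation of left ends, leaving out 525 of 120384 bins of 1 kb whose count passed 5 times the median in at least 1 of the 3 libraries. For other libraries their own dense bins were left out too. Phasing, regularity and coverage change in 10 kb windows, facing ends and the pooled share under 120 bp were run on simulated data. Windows of 1 kb, and the shares and lengths of single windows, were not simulated. Windows to be named were up to 3 rises and 3 falls of 10 kb with the medium digest between, and the 3 windows of 1 kb with the highest mean share under 120 bp. The measures and windows were chosen with earlier results of these data known. Distances of 100 to 600 bp, fragments over 250 and up to 450 bp, and abutting ends were chosen after seeing the data. Alternatives were all deposited intervals, thinning, other length limits, scalings and folds. No test was made, since each digest has 1 library. Python 3.11.15, numpy 2.4.6, scipy 1.17.1 and matplotlib 3.10.9 were used.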

Additional observations from a re-analysis of the deposited data

How the results depend on the processing

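Of 72 alternatives to 13 results, 35 stayed within the spread over the 5 large arms, the counting interval (shares) or 1.5 times (counts), 35 moved and 2 reversed; causes were not tested. From low to high, the share under 120 bp changed by -2.19 percentage points as deposited, -2.03 thinned to 20000000 fragments, -1.07 over all sequences, -0.764 under 100 bp and -1.87 under 140 bp, against -1.31. The share up to 250 bp changed by -8.26 as deposited, -7.59 thinned and -3.29 over all sequences, against -3.34. In the median window the share under 120 bp changed by -2.21 as deposited, -2.04 thinned, -0.769 under 100 bp and -1.81 under 140 bp, against -1.29. Length changed by -35 bp within 600 to 800 bp and -41 bp for the mode, against -44 bp.

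The rise of 0.334 points in phasing amplitude reversed to -0.287 in fragments of 120 to 250 bp, and was 0.875 over lags of 100 to 600 bp and 0.136 in fragments over 250 and up to 450 bp, both chosen after seeing the data. The period change of -2 bp became 57 bp in fragments of 120 to 250 bp, where the high digest was at the search limit. It was -3 bp with right ends, no dense bins left out or thinning, -1 bp over lags of 100 to 600 bp and -15 bp in fragments over 250 and up to 450 bp. After smoothing, the most frequent gap moved by 2 bp in fragments of 500 to 1000 bp, against 1 bp. Window regularity rose by 0.339 in that class, against 0.26.

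Higher 10 kb windows numbered 53 when scaled to total fragments, 46 as deposited, 47 thinned, 73 in fragments of 500 to 1000 bp, 52 in fragments of 120 to 250 bp and 0 at 2-fold, against 30. Lower ones numbered 16 at 2-fold, 217 in fragments of 500 to 1000 bp and 734 in fragments of 120 to 250 bp, against 366. The SD of the log2 ratio was 0.31 in fragments of 120 to 250 bp. At 2-fold, 796 windows of 1 kb were higher and 5708 lower. No paired analysis was possible because the result comes from no test, with 1 library per digest. Shares under 120 bp in single 1 kb windows are limited by depth.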

Other observations

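Heterochromatic scaffolds and mitochondrial DNA were outside the comparisons of the arms. On the 6 scaffolds 2LHet, 2RHet, 3LHet, 3RHet, XHet and YHet, tetranucleosomal fragments were longer than on the arms in each digest. The most frequent length was 718 to 726, 703 to 711 and 674 to 693 bp from low to high, against 697, 680 and 656 bp on the arms. The peak thus shortened there too. Medians of fragments of 500 to 1000 bp lay 10 to 12, 3 to 20 and 4 to 17 bp above the arms. Among these scaffolds XHet had the smallest share of fragments under 120 bp, at 2.63%, 1.63% and 1.37%. Uextra, unplaced sequence, had the largest, at 9.37%, 8.43% and 9.47%, with no steady fall. Repeated sequence makes placement uncertain on these scaffolds.

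Mitochondrial DNA carries no nucleosomes. Its share of distinct fragments was 0.0305%, 0.00301% and 0.00169% from low to high, on 30482, 1542 and 479 fragments. The share was 18.0 times as high in the low as in the high digest, a far larger change than that of any scaffold or arm. Wilson 95% intervals of 0.0301 to 0.0308%, 0.00286 to 0.00316% and 0.00155 to 0.00185% did not overlap, and cover counting error only. How many mitochondria each preparation of nuclei held was not measured, so this fall and the digest cannot be told apart.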
